A study of Mus musculus with 6 samples.

Results

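Members of the Bcl2 family decide whether the outer membrane of the mitochondrion is opened, the step that commits most cells to apoptosis. Survival proteins of the family (here called guardians: BCL2, BCL-XL, MCL1 and A1) hold the pore-forming effectors BAX and BAK in check, and the BH3-only proteins, such as BIM and NOXA, bind the guardians and free the effectors. In macrophages the balance follows signals from outside the cell: A1 is a known NF-kB target, MCL1 is a short-lived protein that must be made continuously, and NOXA binds MCL1 and A1 in particular. The 10 genes described here were taken by their symbols from a table of 55421 genes. They are the guardians Bcl2, Bcl2l1 (BCL-XL), Mcl1, Bcl2a1a, Bcl2a1b and Bcl2a1d (3 copies of A1), the effectors Bax and Bak1, and the BH3-only genes Bcl2l11 (BIM) and Pmaip1 (NOXA).

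RNA was sequenced from microglia, the resident macrophages of the brain, sorted on CD45 and CD11B from C57BL/6 mice aged 4 to 5 weeks. All animals carried the floxed Qk allele (QKIfl/fl in the labels), and the 3 libraries labelled KO also carried Cx3cr1cre-ert2, a tamoxifen-dependent Cre driven from the Cx3cr1 locus, which is active in microglia and in other cells that express Cx3cr1. The 3 libraries labelled WT had no Cre, and the Cre allele is thus a difference between the groups besides the planned deletion in Qk, whose product QKI is an RNA-binding protein of splicing and transcript stability; the labels name no tamoxifen treatment and no deleted exons. The labels do not say that each library is its own animal or pool, so a p-value here covers the spread among the libraries, which may be technical.

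Values are normalised reads, that is, reads per gene scaled by the authors so that every library sums to 34360040 to 34360054. The reads behind these totals numbered 56988261 to 77199936 per library. The columns carry the letters A, B and C, used here as library names. Qk, the targeted gene, was higher in the libraries labelled KO (24768 ± 1073 against 11632 ± 800 normalised reads, SD, n = 3 each), which goes against a loss of the transcript, so directions are given for libraries by their label, KO relative to WT. Cx3cr1, the locus that carries the Cre, was 4.22-fold lower. Of 11 microglial markers 8 were lower and 0 higher, and their summed level was 1574942 to 1614512 normalised reads in WT and 780229 to 877424 in KO. Neutrophil markers fell in 9 of 12 and rose in 0. Markers of other brain cells were lower in 10 of 10 (neuron), 7 of 8 (astrocyte), 5 of 8 (oligodendrocyte), 6 of 8 (endothelial cell) and 7 of 7 (pericyte) and higher in 0, with the highest sums in WT C. Border-associated macrophage markers were higher in 5 of 10 and lower in 1, while their sum, mostly Stab1, was 31589 to 32681 normalised reads in WT and 22748 to 25364 in KO. Markers of dividing cells were higher in 10 of 10. In such bulk samples fewer cells of a type and less RNA per cell cannot be told apart. The part of these shifts in the members' values was not tested.

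In the libraries labelled KO 6 members rose and 2 fell. Pmaip1, the 3 Bcl2a1 copies, Mcl1 and Bax passed as higher, Bcl2l1 and Bcl2l11 passed as lower, and Bcl2 and Bak1 did not pass (limma on log2(value + 1), Benjamini-Hochberg adjusted p under 0.05 over 22472 genes tested). All 10 members were above the level needed for testing, a mean of 1. Over all genes tested 11.3% were called higher and 23.4% lower, and 34.6% either way. The groups did not overlap for 9 of the 10 members, against 47.9% of all genes tested. A log2 fold change of 1 was reached by 4 of the rises, which 5.34% of all genes did. The median log2 fold change was 0.60 for the members and -0.15 for all genes tested.

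**Figure D1:**
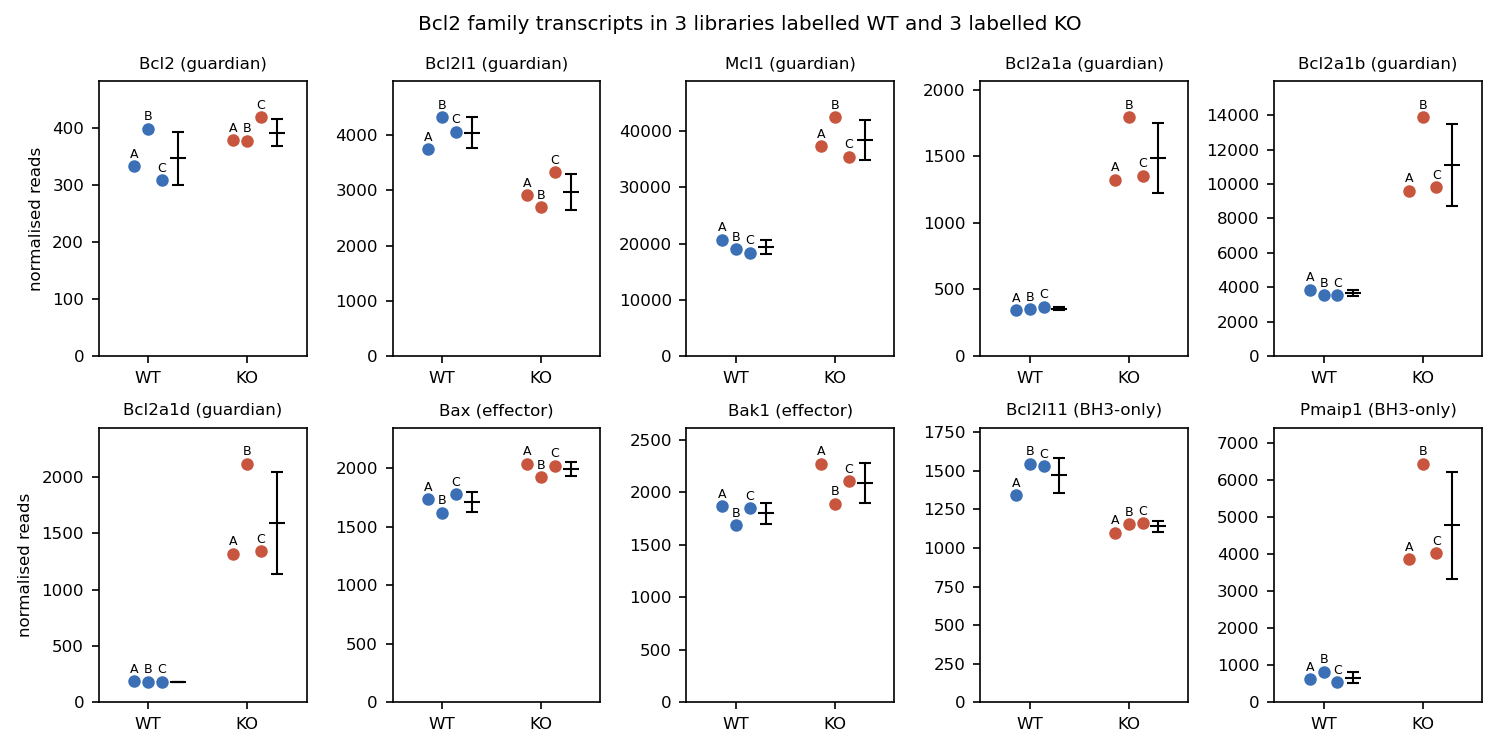
Normalised reads (vertical axes, each from 0) of the 10 Bcl2 family genes in the 3 libraries labelled WT (blue) and the 3 labelled KO (red), with the library letter above each point and the group mean ± SD as a black bar beside the points. The 3 Bcl2a1 copies, Mcl1 and Pmaip1 have all 3 KO points far above WT with KO B on top, Bcl2l1 and Bcl2l11 have all KO points below WT, and the Bcl2 groups overlap.

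The median over all genes moved with the scaling. When trimmed-mean (TMM) factors were applied to the same values the median of all genes moved by 0.13, from -0.15 to -0.02, and each member moved up by about that amount. Under those factors 7 members were called higher, with Bak1 added, and 2 lower, where 15.4% of all genes were called in each direction and 30.7% in either. By edgeR on recovered reads, with 19.0% of genes higher, 18.8% lower and 37.8% in either direction, Bak1 was called as well. With the column letter as a replicate block the members also counted 7 higher and 2 lower, against 13.4% and 28.3% of all genes (41.7% in either direction). The small changes of Bax, Bak1, Bcl2, Bcl2l1 and Bcl2l11 are therefore given below on both scalings.

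**Figure D2:**
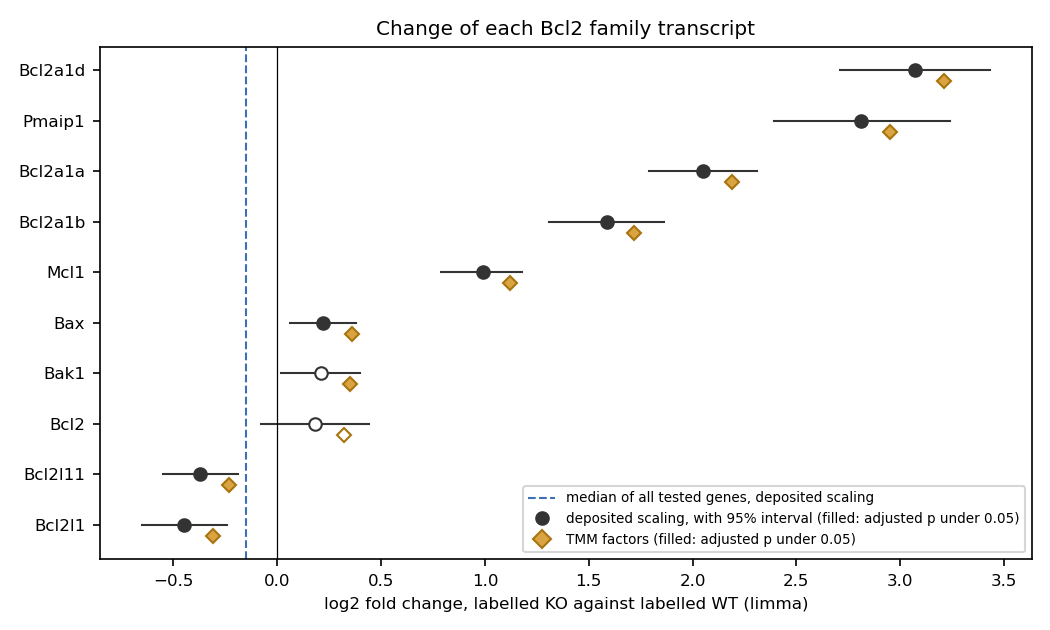
Log2 fold change of each member, libraries labelled KO against those labelled WT (horizontal axis), with the deposited scaling (circles, with 95% intervals) and with TMM factors (diamonds); filled symbols have an adjusted p under 0.05. The dashed line is the median of all genes tested, -0.15; Bcl2a1d lies highest at 3.07 and Bcl2l1 lowest at -0.45.

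Among the guardians, Mcl1 was the most abundant transcript of the family in the libraries labelled WT. MCL1 holds BAK and binds BIM and NOXA, and myeloid cells are known to rely on it. Its level was 20698, 19004 and 18403 normalised reads in WT A, B and C and 37320, 42467 and 35478 in KO A, B and C. Every KO library lay far above every WT library. The group means were 19368 ± 1190 and 38422 ± 3622 (SD, n = 3 each), a 1.98-fold rise or 0.99 on the log2 scale (SE 0.09, limma adjusted p = 1.42e-05). Mcl1 lies on the plus strand of chromosome 3 at 95658788 to 95663176 (GRCm38), and the table gives a transcript of 3413 bases, in 3 exons.

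The A1 genes rose most among the guardians. In mice the A1 gene is present in several copies, and Bcl2a1a, Bcl2a1b and Bcl2a1d lie near each other on chromosome 9 (88956900 to 88962419 and 89199209 to 89207827 on the plus strand, and 88723285 to 88731914 on the minus strand). Bcl2a1b, the most abundant copy, had 3849, 3546 and 3541 normalised reads in WT A, B and C and 9612, 13875 and 9826 in KO A, B and C. It rose 3.05-fold, or 1.59 on the log2 scale (SE 0.12, limma adjusted p = 5.67e-06). Bcl2a1a had 344, 351 and 370 normalised reads in the WT libraries and 1324, 1793 and 1354 in the KO libraries. Its rise was 4.2-fold, 2.05 on the log2 scale (SE 0.12, limma adjusted p = 6.6e-07). Bcl2a1d had nearly the same level in the 3 WT libraries, 185, 183 and 183, and 1316, 2113 and 1341 normalised reads in KO A, B and C. This was an 8.65-fold rise, the largest of the 10 members, or 3.07 on the log2 scale (SE 0.16, limma adjusted p = 4.15e-07). For all 3 copies the WT libraries lay close together, KO A and KO C lay close together, and KO B was the highest.

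How far the copies can be told apart depends on their sequence. The 3 transcripts are shown over their first 60 coding bases, all in the first coding exon, with capitals at the 6 positions where at least 1 copy differs (GENCODE M21 transcripts, GRCm38; chr9:88957051-88957110 on the plus strand for Bcl2a1a, chr9:89199360-89199419 on the plus strand for Bcl2a1b and chr9:88731660-88731719 on the minus strand for Bcl2a1d).
Bcl2a1a: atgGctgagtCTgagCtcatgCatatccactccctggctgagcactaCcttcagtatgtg
Bcl2a1b: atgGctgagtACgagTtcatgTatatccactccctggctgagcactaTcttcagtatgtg
Bcl2a1d: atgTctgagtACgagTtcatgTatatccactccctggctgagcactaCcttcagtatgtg
Over this stretch Bcl2a1b and Bcl2a1d differ at 2 bases and Bcl2a1a differs from each of them at 5. Over the whole transcripts the aligned bases were 98.2% identical between Bcl2a1a and Bcl2a1b, 98.8% between Bcl2a1a and Bcl2a1d, and 99.1% between Bcl2a1b and Bcl2a1d. Of all 50-base windows, 31.0% of those in Bcl2a1a, 20.8% in Bcl2a1b and 20.5% in Bcl2a1d occur in no transcript of another gene, and of 100-base windows 56.5%, 43.2% and 45.3%. The sources used here give neither the read length nor the treatment of reads with several matches. The level and the fold of each single copy are therefore uncertain, and reads of one copy may be counted for another.

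Gm29094, a protein-coding gene model on the same strand, shares 401 of the 817 exon bases of Bcl2a1b. Its deposited value went from 2396 ± 129 to 6987 ± 1482 normalised reads (SD), a rise of 1.52 on the log2 scale (SE 0.12, limma adjusted p = 7.41e-06), close to the 1.59 of Bcl2a1b. The deposited values cannot say which of the overlapping genes these reads came from. The 3 copies summed to 4184 ± 168 normalised reads in WT and 14185 ± 3118 in KO, a 3.39-fold difference of the means. A single row for all Bcl2a1 copies, Bcl2a1c included, was 1.74 higher on the log2 scale (SE 0.13, limma adjusted p = 3.09e-06), and 1.67 with Gm29094 added (limma adjusted p = 4.13e-06), an alternative chosen after the data were seen. Bcl2a1b made up 87.1 ± 0.724% of the 3-copy sum in WT and 78.3 ± 0.252% in KO, with no overlap between the groups. Bcl2a1c, the remaining copy, was near the lower limit with 3.97 ± 2.34 and 10.97 ± 3.46 normalised reads. It was called higher (limma adjusted p = 0.044), a call lost with the column letter as a block (limma adjusted p = 0.0528).

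The promoter windows of the 3 copies were 99.2% identical over aligned bases between Bcl2a1a and Bcl2a1b, 98.0% between Bcl2a1a and Bcl2a1d, and 98.8% between Bcl2a1b and Bcl2a1d. The stretches shown are taken from RefSeq promoter windows on GRCm38.p6. Capitals mark a match to TGANTCA (N is any base), searched under the name AP-1, followed by one to GAGGAAGT (ETS/PU.1). The 2 matches do not overlap. In all 3 copies the matched letters are TGAATCA, with A at the free base. AP-1 is thus the name of the loose search pattern only, and binding of AP-1 to TGAATCA was not tested. The stretches lie at chr9:88956714-88956848 (plus strand) for Bcl2a1a, chr9:89199023-89199157 (plus strand) for Bcl2a1b and chr9:88731916-88732050 (minus strand) for Bcl2a1d.
Bcl2a1a: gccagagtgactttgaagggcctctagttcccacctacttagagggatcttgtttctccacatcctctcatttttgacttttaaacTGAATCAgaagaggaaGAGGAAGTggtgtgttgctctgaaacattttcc
Bcl2a1b: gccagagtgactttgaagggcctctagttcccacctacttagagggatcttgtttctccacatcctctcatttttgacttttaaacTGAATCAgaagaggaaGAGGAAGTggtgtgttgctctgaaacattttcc
Bcl2a1d: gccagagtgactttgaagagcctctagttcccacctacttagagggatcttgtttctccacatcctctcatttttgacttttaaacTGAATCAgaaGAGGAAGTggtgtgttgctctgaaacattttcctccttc
Searched on both strands, GAGGAAGT is in 3.2% and TGANTCA in 7.81% of 32851 promoter windows of 300 bases. Among the windows of the other members searched, GAGGAAGT matched only in Bak1 and TGANTCA in none. A match to an NF-kB pattern (GGGA, any 4 bases, CC), found in 20.73% of all windows, was present for Bcl2a1b, Bak1 and 1 of the Bcl2l11 windows. The windows of the A1 copies do not cover the same stretch. GAGGAAGT begins at base 103 of the Bcl2a1b window and at base 147 of those of Bcl2a1a and Bcl2a1d. The NF-kB match begins at base 252 for Bcl2a1b, where the windows of Bcl2a1a and Bcl2a1d may end too early to hold it. A difference between the copies cannot be read from it. Patterns for IRF (TTTC, any 2 bases, TTTC, 3.44% of all windows), STAT (TTC, any 3 bases, GAA, 8.3%), p53 (CATG, any 10 bases, CATG, 0.57%) and CRE (TGACGTCA, 1.79%) matched in none of the members searched, and Pmaip1 was not searched. The window of Bcl2a1c, also searched, held 1 match to GAGGAAGT, 1 to the NF-kB pattern and 0 to TGANTCA. These matches describe letters in a window and are not sites of binding, and their part in the changes was not tested.

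Bcl2l1 and Bcl2 did not share the rise of the other guardians. Bcl2l1, whose long form BCL-XL protects many long-lived cells, fell. It had 3754, 4326 and 4065 normalised reads in WT A, B and C and 2910, 2692 and 3336 in KO A, B and C. The lowest WT library lay above the highest KO library. The group means were 4048 ± 286 and 2979 ± 328 (SD, n = 3 each), 1.36-fold lower, or -0.45 on the log2 scale (SE 0.09, limma adjusted p = 0.00361) and -0.31 with TMM factors (limma adjusted p = 0.0229). The table names 1 of 9 annotated transcripts of the locus on the minus strand of chromosome 2 (152780672 to 152830666), and the long and the short splice form cannot be told apart here. Bcl2, the founding gene of the family, had 333, 398 and 308 normalised reads in the WT libraries and 378, 378 and 419 in the KO libraries. The groups overlapped, since WT B lay above KO A and KO B. Its log2 fold change was 0.18, with a 95% interval from -0.08 to 0.44 (limma adjusted p = 0.265), and 0.32 with TMM factors (limma adjusted p = 0.0739). Bcl2 spans 106538178 to 106714274 of chromosome 1 (minus strand).

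Levels were compared between members per kilobase of the transcript length that the table gives. In the libraries labelled WT Mcl1 stood at 5675 ± 349 normalised reads per kilobase, above Bcl2a1b at 4478 ± 216, and Bcl2l1 at 1580 ± 112 was level with Bax at 1571 ± 76.1 within 1 SD. Bak1 (759 ± 42.0), Bcl2a1a (435 ± 16.2) and Bcl2l11 (292 ± 22.4) followed. The ranges of 1 SD of Bcl2l11 and Pmaip1 (246 ± 52.4) overlapped, as did those of Pmaip1 and Bcl2a1d (214 ± 1.63). Bcl2 was lowest in both groups, at 48.2 ± 6.48 in WT and 54.4 ± 3.28 in KO. In the libraries labelled KO Bcl2a1b (13642 ± 2951) and Mcl1 (11258 ± 1061) overlapped at the top. Bcl2a1d, Bax, Bcl2a1a and Pmaip1 stood between 1757 and 1849 normalised reads per kilobase, each overlapping its neighbour in the order. Reads of an A1 copy may be counted for another copy or for Gm29094, which had 2396 normalised reads in WT and 6987 in KO. The places of the A1 copies, and the order of Mcl1 and Bcl2a1b, are therefore uncertain.

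The make-up of the guardian transcripts differed between the groups. As a share of the per-kilobase sum of the 6 guardians, Mcl1 held 46.9%, 45.2% and 44.8% in WT A, B and C and 40.4%, 35.3% and 38.4% in KO A, B and C. The 3 A1 copies together held 41.5%, 40.6% and 41.7% in the WT libraries and 55.2%, 61.6% and 56.5% in the KO libraries, again without overlap. Bcl2l1 went from 12.7 ± 1.255% to 4.00 ± 0.933% of the sum. The sum itself was 2.40-fold higher in the libraries labelled KO, 29791 ± 4724 against 12430 ± 464 normalised reads per kilobase. These shares carry no test. The share of each A1 copy depends on how reads were divided among the copies. The share of the 3 together depends on the treatment of reads with several matches. It also depends on the reads counted for Gm29094, which is not in the sum.

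**Figure D3:**
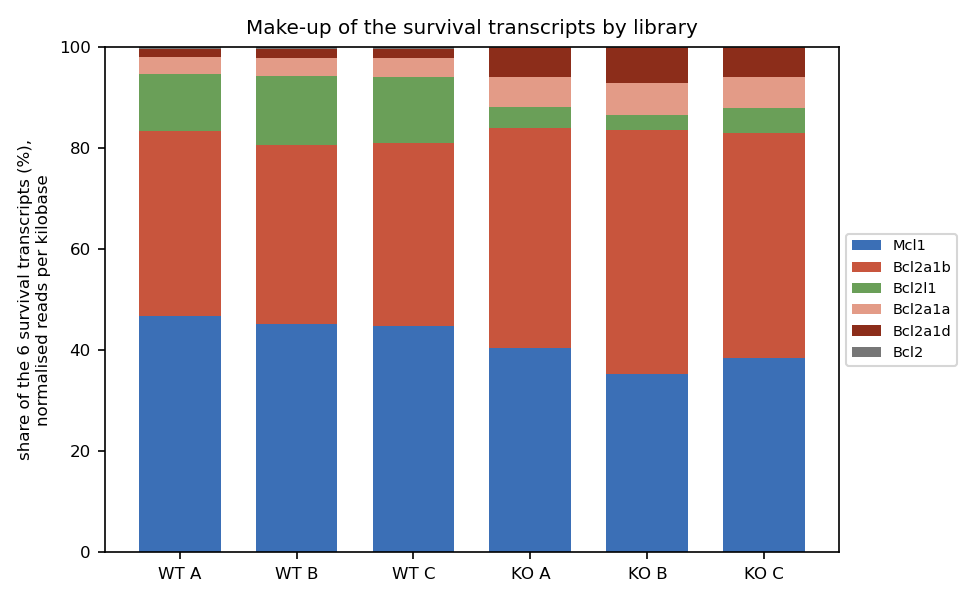
Share of each guardian in the per-kilobase sum of the 6 guardian transcripts (vertical axis, %) in each of the 6 libraries. Mcl1 (blue) and Bcl2l1 (green) take smaller shares in all 3 libraries labelled KO, and the 3 A1 copies (red shades) go from 40.6% to 41.7% in WT to 55.2% to 61.6% in KO.

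The effectors differed by small amounts. BAX moves to mitochondria when activated, and BAK already resides there. Bax had 1738, 1621 and 1782 normalised reads in WT A, B and C and 2040, 1927 and 2024 in KO A, B and C. All KO values lay above all WT values, by a narrow margin. The log2 fold change of Bax was 0.22 (SE 0.07, limma adjusted p = 0.0346) and 0.36 with TMM factors (limma adjusted p = 0.00256). The call was lost without WT A, WT B, KO A or KO C (limma adjusted p = 0.0734, 0.125, 0.0912 and 0.0967). Bax spans 45461867 to 45466831 of chromosome 7 (minus strand). Gm45808, a gene model on the same strand, shares 192 of the 1100 exon bases of Bax, and its log2 fold change was 0.27 (limma adjusted p = 0.0564).

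Bak1 had 1869, 1688 and 1850 normalised reads in the WT libraries and 2271, 1890 and 2105 in the KO libraries. Here too the groups did not overlap, with KO B only just above WT A. Its log2 fold change of 0.21 (95% interval 0.02 to 0.40) did not pass (limma adjusted p = 0.0809). It passed with TMM factors (0.35, limma adjusted p = 0.0105), without KO B (0.28, limma adjusted p = 0.0284) and with the column letter as a replicate block (limma adjusted p = 0.0144). Bak1 spans 27019810 to 27029009 of chromosome 17 (minus strand). Part of its transcript, 614 of 2387 exon bases, lies under exons of Ggnbp1 on the opposite strand, whose own log2 fold change was 0.02; the strand setting of the counting was not given in the sources used here.

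The BH3-only genes moved in opposite directions. Pmaip1, which encodes NOXA, had 633, 828 and 550 normalised reads in WT A, B and C and 3872, 6448 and 4024 in KO A, B and C. The lowest KO library stood far above the highest WT library, and KO B was above the other 2. The means of 670 ± 143 and 4781 ± 1445 (SD, n = 3 each) gave a 7.13-fold rise, 2.81 on the log2 scale (SE 0.19, limma adjusted p = 2.14e-06). Without KO B it was 2.58. The gene lies on the plus strand of chromosome 18 at 66458533 to 66465560.

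Bcl2l11, which encodes BIM, a BH3-only protein that binds all guardians, had 1341, 1544 and 1527 normalised reads in the WT libraries and 1099, 1155 and 1160 in the KO libraries. All KO values lay below all WT values. It was 1.29-fold lower, or -0.37 on the log2 scale (SE 0.08, limma adjusted p = 0.00544) and -0.23 with TMM factors (limma adjusted p = 0.0434). The gene spans 128126039 to 128162547 on the plus strand of chromosome 2. Per kilobase, the Pmaip1 level was 0.843 ± 0.164 times that of Bcl2l11 in the libraries labelled WT and 7.74 ± 2.23 times in those labelled KO. The per-kilobase sum of the guardians was 23.3 ± 2.93 times that of Bcl2l11 and Pmaip1 together in WT and 15.3 ± 1.54 times in KO. Other BH3-only genes are not in this sum, such as Bmf and Bid, which were called lower, and Bbc3, which was called higher. Neither ratio overlapped between the groups, and neither carries a test.

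KO B was the highest of the 6 libraries for 5 members, namely Mcl1, the 3 A1 copies and Pmaip1. It was the lowest KO library for Bcl2, Bcl2l1, Bax and Bak1. The log2 fold changes without it were 0.91 for Mcl1, 1.42 for Bcl2a1b, 1.91 for Bcl2a1a and 2.85 for Bcl2a1d, and these calls held. Neutrophils are known for high A1 and MCL1 levels. The neutrophil list, without Csf3r, which stood at 27603 and 30640 normalised reads in the 2 groups, summed to 1900 to 16983 normalised reads in WT and 64.1 to 124 in KO, and was highest in WT C. Without WT C the log2 fold changes were 0.95 for Mcl1 and 3.07 for Bcl2a1d. The part of this list in the members' values was not tested. Of the NK cell list Ncr1, Klra8 and Gzma were at 0 in every library, as were Cd8a of the T cell list and Pax5 of the B cell list. The B cell list still summed to 15635 to 17492 normalised reads in WT and 11657.5 to 13415.5 in KO, mostly Ighm. Of its 4 tested genes 3 were lower and 0 higher. The T cell list summed to 44.6 to 69.9 in WT and 93.7 to 101 in KO, with 1 of 3 tested genes higher and 1 lower. Its most abundant gene, Cd5, had means of 31.5 in WT and 74.6 in KO. Without Cd5 the list summed to 16.5 to 33.9 in WT and 19.4 to 26.25 in KO. Cd3e, Cd3d, Cd3g and Trac had a mean of at most 1. Monocyte markers were higher in 1 of 10 and lower in 5, with sums of 682 to 2055 in WT and 804 to 1006 in KO. Ms4a4c, the most abundant of them, had means of 49.7 in WT and 477 in KO. Without Ms4a4c the sums were 644 to 2018 in WT and 360 to 470 in KO, with no overlap.

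The authors' deposited table gave the same directions for the 10 members. In the authors' deposited table the log2 fold changes were 3.25 for Bcl2a1d, 2.97 for Pmaip1, 2.21 for Bcl2a1a, 1.75 for Bcl2a1b and 1.13 for Mcl1. The authors' deposited table called Bak1 (0.35, adjusted p = 0.00186) and did not call Bcl2l11 (-0.23, adjusted p = 0.0508) at 0.05. By that threshold 28.1% of the genes tested here were called. The authors' list of 503 genes, 2.24% of those tested, held 4 members, Pmaip1 and the 3 A1 copies.

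Beyond the 10 members, 88 other apoptosis genes from 7 lists were tested, of which 21 were higher and 18 lower, with a median log2 fold change of -0.01. These shares stand beside 11.3% higher and 23.4% lower among all genes. With TMM factors 28 were higher and 7 lower, where 15.4% of all genes were called each way. With the replicate block 24 were higher and 25 lower.

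Among other guardians and relatives 3 of 8 were higher (Bcl2l2, Bcl2a1c and Bcl2l14) and 4 lower, and 3 and 0 with TMM factors. Bcl2l2, which encodes the guardian BCL-W, went from 372 ± 51.9 to 519 ± 30.1 normalised reads, a log2 fold change of 0.49 (limma adjusted p = 0.00889). Bcl2l13, Bfar and Bcl2l12 had log2 fold changes of -0.28, -0.23 and -0.30, and none of the 3 passed with TMM factors. Their calls were also lost with 1 library left out: Bcl2l13 without WT C or KO B (limma adjusted p = 0.0967 and 0.0724), Bfar without any but WT B (0.0625 to 0.153), and Bcl2l12 without WT A, WT C, KO A or KO C (0.0909 to 0.145). The median of this list was -0.25.

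Of 12 other BH3-only and BNIP genes 2 were higher and 5 lower, and 2 and 2 with TMM factors (median -0.18). Bbc3, the gene of the p53-inducible BH3-only protein PUMA, rose 2.40-fold, from 1229 ± 124 to 2951 ± 220 normalised reads (log2 fold change 1.27, SE 0.09, limma adjusted p = 3.29e-06). The other rise was Bik, named after its values were seen, at 0.54. Bnip3l, a receptor for the removal of mitochondria by autophagy, fell by 0.79 on the log2 scale (limma adjusted p = 0.000192). Bmf at -0.32 and Bid at -0.27, the gene of the link between caspase 8 and mitochondria, were called lower. With TMM factors Bid did not pass (limma adjusted p = 0.142), nor did it without WT C (limma adjusted p = 0.0675). Bmf stood near the threshold under other scalings, with an adjusted p of 0.0518 by limma with TMM factors and 0.0535 by DESeq2, and of 0.0452 by edgeR and 0.0427 by limma-voom.

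The machinery downstream of the mitochondrion was mostly not called: 15 of 18 genes did not pass, 1 was higher and 2 were lower, and 2 and 1 with TMM factors (median -0.12). The exception above was Apaf1, the scaffold of the apoptosome, which went from 990 ± 8.58 to 1825 ± 68.1 normalised reads (log2 fold change 0.88, SE 0.07, limma adjusted p = 6.56e-06). Diablo, an antagonist of the inhibitor of apoptosis proteins, was -0.35, and Vdac3, a channel of the outer membrane, -0.26; Vdac3 did not pass with TMM factors or without WT A, WT C, KO B or KO C (limma adjusted p = 0.071 to 0.0937). Casp6, an executioner caspase, was at -0.25 and did not pass (limma adjusted p = 0.0621), and it was called lower with the replicate block (limma adjusted p = 0.0308).

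Inhibitor of apoptosis genes were higher in 2 of 9 and lower in 1, and 4 and 0 with TMM factors (median 0.01). Birc3, which encodes cIAP2 and is a known NF-kB target, had 1656, 1862 and 1500 normalised reads in WT A, B and C and 2287, 3554 and 2197 in KO A, B and C, with KO B again the highest (log2 fold change 0.65, limma adjusted p = 0.0104). Birc5, the gene of survivin, which also acts in mitosis, rose 4.43-fold; all 10 markers of dividing cells also rose, and their part in this value was not tested. Xiap was -0.26 and did not pass with TMM factors (limma adjusted p = 0.382) or without any library but WT C (0.0549 to 0.151). Naip6, of a cluster of close copies, was 0.27 and passed with TMM factors (0.40, limma adjusted p = 0.0315), not with the deposited scaling (limma adjusted p = 0.1), and it passed with the replicate block (limma adjusted p = 0.00534) and without WT B or KO A (0.0432 and 0.023).

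In the death receptor pathway 2 of 11 genes were higher and 3 lower, and 2 and 2 with TMM factors (median -0.12). Ripk3, the kinase of necroptosis, went from 350 ± 27.6 to 204 ± 17.9 normalised reads (log2 fold change -0.78, limma adjusted p = 0.000608), and Fadd, the adaptor of death receptors, fell by 0.62 on the log2 scale (limma adjusted p = 0.0103). Casp8 at -0.32 was called, and not with TMM factors (limma adjusted p = 0.162) or without WT B, WT C, KO A or KO C (0.0698 to 0.0777). Tnfsf10, the gene of the death ligand TRAIL, rose by 0.43 (limma adjusted p = 0.0173), a call lost without WT C, KO A or KO C (limma adjusted p = 0.0613, 0.0535 and 0.0718).

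A list written here for the control of MCL1, BIM or NOXA, with genes of stress signals, was higher in 7 of 16 and lower in 0. With TMM factors 9 were higher and 0 lower (median with the deposited scaling 0.15). Action of these genes on the members was not tested. Trib1, an adaptor for protein degradation, rose 2.50-fold, and Atf4, a transcription factor of the integrated stress response that is known to act on Pmaip1, rose from 8122 ± 95.7 to 12484 ± 1447 normalised reads (log2 fold change 0.61, limma adjusted p = 0.000326). Zfp36 and Zfp36l1, which encode proteins that direct the decay of AU-rich transcripts, rose by 1.10 and 0.74 (limma adjusted p = 0.000374 and 0.000279).

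Of 15 genes of the p53 response 5 were higher and 3 lower, and 7 and 2 with TMM factors (median 0.24). Cdkn1a, the gene of the cell cycle inhibitor p21, went from 1492 ± 172 to 9687 ± 1032 normalised reads, a rise of 2.7 on the log2 scale (SE 0.10, limma adjusted p = 5.91e-08). Plk2 and Btg2 rose 2.43-fold and 1.75-fold, and Bbc3 is counted in this list as well. The remaining rise, named after its values were seen, was Gdf15 at 0.76 on the log2 scale (limma adjusted p = 0.0117). Mdm2 and Ccng1, which p53 also regulates, were at 0.03 and 0.15 on the log2 scale, below the threshold for a call (limma adjusted p = 0.783 and 0.387); they were named after their values were seen. The 3 lower genes, also named after their values were seen, were Perp, Sesn1 and Sesn2. Perp went from 99.3 ± 17.6 to 18.9 ± 1.92 normalised reads, a log2 fold change of -2.32 (limma adjusted p = 3e-05). Sesn1 and Sesn2 were at -0.34 and -0.32. Sesn2 did not pass with TMM factors (limma adjusted p = 0.147).

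**Figure D4:**
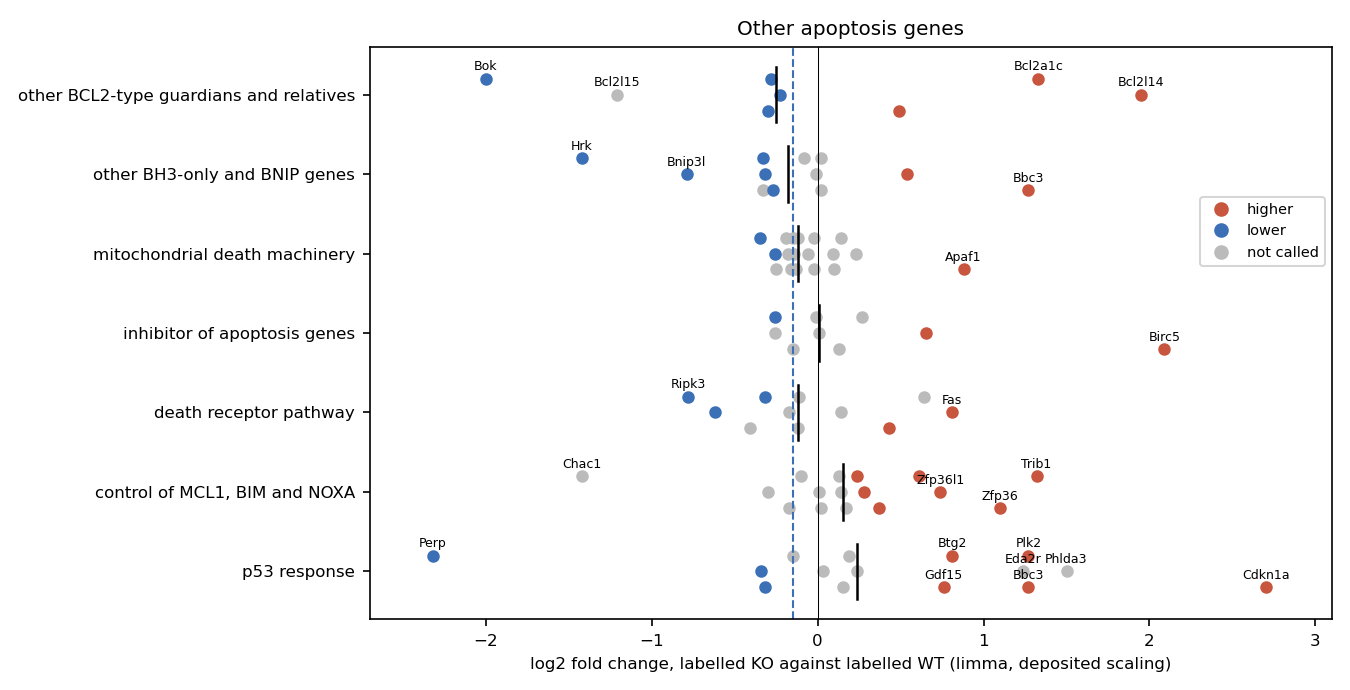
Log2 fold change of the tested genes of the 7 other apoptosis lists (horizontal axis, limma with the deposited scaling); red points were called higher, blue points lower and grey points did not pass, black bars are list medians and the dashed line is the median of all genes, -0.15. The mitochondrial machinery clusters near the dashed line apart from Apaf1, and Cdkn1a at 2.7 is the farthest right.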

How the data were processed

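RNA of 6 libraries (3 per label) was measured. DESeq2 1.26.0, HOMER 4.11.1, Trimmomatic 0.39, STAR 2.7.1a and the builds mm10 and GRCm38 are named, per the submitters' processing notes, without roles or order. The deposited signal is reads per gene that the authors divided by 1 factor per library, to equal totals; whole reads were recovered from its steps of 0.445 to 0.603 per read (100.0% of low values within 0.1 of a whole number). The lowest member value, Bcl2a1d in WT C, stood for 303 reads. The authors also deposited a log2 fold change, a p-value and an adjusted p-value per gene. Control columns were taken as WT and Treatment columns as KO from the group names alone, and letters match no label.

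One row per symbol was kept (117 left out). Genes with a mean above 1 were tested with limma 3.58.1 (R 4.3.3, trend) on log2(value + 1), which understates changes of low genes; folds are ratios of group means. Alternatives used edgeR 4.0.16, DESeq2 1.42.0 and limma-voom on recovered reads. The tools limma, edgeR with TMM factors, DESeq2 and limma-voom were tested on simulated counts in which 200 genes changed, equally up and down. The edgeR fit with RLE factors and the block fits were not tested so, and a shift of scaling between groups was not simulated. Replicate libraries differed by more than sampling noise (chi-square per gene 25.4 to 50.8). Over 11588 genes, deviations from the group mean correlated between same-letter libraries at 0.61, 0.20 and 0.30 for A, B and C. Libraries of different letters were not compared in this way. From that check alone the letters were used as a replicate block, in alternative fits only. The main fit and its adjusted p-values have no block.

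Members and lists were chosen with earlier results of these data known. Named are all members, Qk and Cx3cr1, from each list the 4 genes with the smallest p among those with a mean above 100, and the genes most like 2 members. Exceptions are stated, or are overlapping genes and the remaining genes of counts under 6. Transcript identity used biopython 1.88.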

Additional observations from a re-analysis of the deposited data

How the results depend on the processing

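All 10 members kept their direction under every alternative run, and Mcl1, the A1 copies, Pmaip1, Bcl2l1 and Bcl2l11 kept their calls, apart from the settings that sum the A1 copies into 1 row. Bcl2 was called under none (adjusted p 0.0526 to 0.594). Bax lost its call under 5 of 21 alternatives (4 libraries left out in turn and an adjusted p of 0.01), and Bak1 gained one under 8 (TMM factors, the 4 count fits, the block, edgeR with the block, and without KO B). Paired by letter (replicate block), 7 members were higher and 2 lower, with Bak1 the member whose call changed; over all genes 3012 were higher and 6366 lower. Over all genes, 2529 were higher and 5252 lower as reported; the lower count was 3452 with TMM factors, 3418 and 3354 by edgeR with TMM and RLE factors, 3495 by DESeq2, 3164 by limma-voom and 2994 at an adjusted p of 0.01. With edgeR and the block, added after the data were seen, 4087 were higher. In the 7 other lists 18 genes were lower; this became 7 with TMM factors, with edgeR (both factors) and with limma-voom, 6 by DESeq2 and at an adjusted p of 0.01, 8 by edgeR with the block, 9 to 15 with 1 library left out, lowest without WT C, and 25 with the replicate block. The higher count of 21 became 24 with the block, 28 with TMM factors, 30 by edgeR (both factors), DESeq2 and limma-voom, 34 by edgeR with the block, 17 to 22 with 1 library left out, and 13 at 0.01. The cause was not tested. Depth did not limit the members: 303 reads or more stood behind each value, and intervals cover the spread between libraries only.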

Other observations

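Over the 6 libraries, the genes most like Bcl2a1d in log2(value + 1), among 11587 genes with a mean above 100, were Sik1 (Pearson r = 0.9995), Bcl2a1a (0.9994) and Gm37759 (0.9993). Sik1, a salt-inducible kinase gene, had 515, 490 and 457 normalised reads in WT A, B and C and 3607, 5908 and 3490 in KO A, B and C. For Mcl1 they were Tcim (0.9993), Cotl1 (0.9993), which encodes an actin-binding protein, and Herpud1 (0.9990), a gene of the endoplasmic reticulum stress response with means of 8648 ± 650 in WT and 29303 ± 5968 in KO (SD, n = 3 each). All 6 had their highest value in KO B. These r are descriptions: the 2 groups alone give high values, and 821 genes had r above 0.95 with Bcl2a1d and 785 with Mcl1.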
